A study of Rattus norvegicus with 65 samples.

Results

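The hypothalamus of liraglutide-treated rats was compared with that of saline-treated rats. All animals of batch B, the second experimental period, that carried either of these 2 labels were used, which gave 5 liraglutide and 5 saline libraries, 10 of 65 in the whole series, with 1 library per animal. The animals were male Wistar rats, 9 to 10 weeks old at the start, which were made obese by 6 weeks of high-fat diet. The liraglutide group received 0.4 mg/kg/day of liraglutide under the skin and saline from an osmotic minipump, and the saline group received saline by both routes. Both groups chose freely between high-fat and low-fat diet, and tissue was taken 4 weeks after the start of treatment, after 10 h of fasting. No saline animal of batch A entered the comparison. The liraglutide libraries carry the replicate numbers 1 to 5 and the saline libraries the numbers 4 to 8. RNA came from dissected hypothalami, so fewer cells of a type, less RNA per cell and a different extent of the dissected tissue cannot be told apart.

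Liraglutide is a long-acting analogue of glucagon-like peptide-1 (GLP-1), a gut hormone that is also made by neurons of the hindbrain. It binds the GLP-1 receptor, a receptor coupled to the stimulatory G protein Gs, which raises cyclic AMP. In the arcuate nucleus at the base of the hypothalamus the drug is known to reach neurons that express Pomc and Cartpt and lower food intake, while neighbouring neurons with Agrp and Npy promote it. Both kinds of neuron act on melanocortin receptors elsewhere in the hypothalamus.

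The libraries held between 20798887 and 27241394 counts on genes in the liraglutide group and between 20622249 and 24974404 in the saline group. Rank correlations of gene levels between libraries ran from 0.963 to 0.982 within the liraglutide group, from 0.951 to 0.985 within the saline group and from 0.954 to 0.987 between the groups. Saline replicate 4 stood apart. Its median rank correlation with the other libraries was 0.960, against 0.971 or more for each of the others. In this library the hypothalamic transcription factor Nkx2-1 was at 0.516 CPM (counts scaled to the library total and by TMM, a factor that corrects for library composition), and Oxt and Avp were at 1.38 and 1.12 CPM. Slc17a7, the vesicular glutamate transporter of cortical neurons, was at 1026 CPM there and between 8.53 and 166 CPM in the other 9 libraries. Across the 14 markers of cortex and hippocampus the summed level was 3387 CPM in this library, between 298 and 1189 CPM in the other saline libraries and between 299 and 1132 CPM in the liraglutide libraries. Without this library 4.58% of all tested genes were higher and 1.88% lower at an unadjusted p under 0.05, against 2.61% and 1.68% with it.

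No gene met the threshold for regulation, an adjusted p under 0.05 with an absolute log2 fold change over 1, among the 18491 genes tested with the quasi-likelihood test of edgeR (0% called). The smallest adjusted p was 0.997. At an unadjusted p under 0.05, 483 genes were higher in liraglutide-treated animals (2.61%) and 311 were lower (1.68%), together 794 genes (4.29%). All 5 liraglutide libraries were above all 5 saline libraries for 102 genes (0.552%) and below them for 66 genes (0.357%). Over all tested genes the median log2 fold change was -0.0087, with 8882 genes higher and 9609 lower. The median SE was 0.176, and the 95% confidence interval of the fold change lay within 2-fold in either direction for 14235 genes (77.0%). DESeq2 without shrinkage of fold changes, run as an alternative, called Per3, Nwd1 and Ptch1 higher and Nwd2 lower at an adjusted p under 0.05. Of these only Nwd2 passed the fold threshold. With the shrinkage that the study used, DESeq2 called Per3, Nwd1 and Ptch1 but not Nwd2, and 0 genes met the threshold for regulation. The DESeq2 values given below are those without shrinkage.

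**Figure D1:**
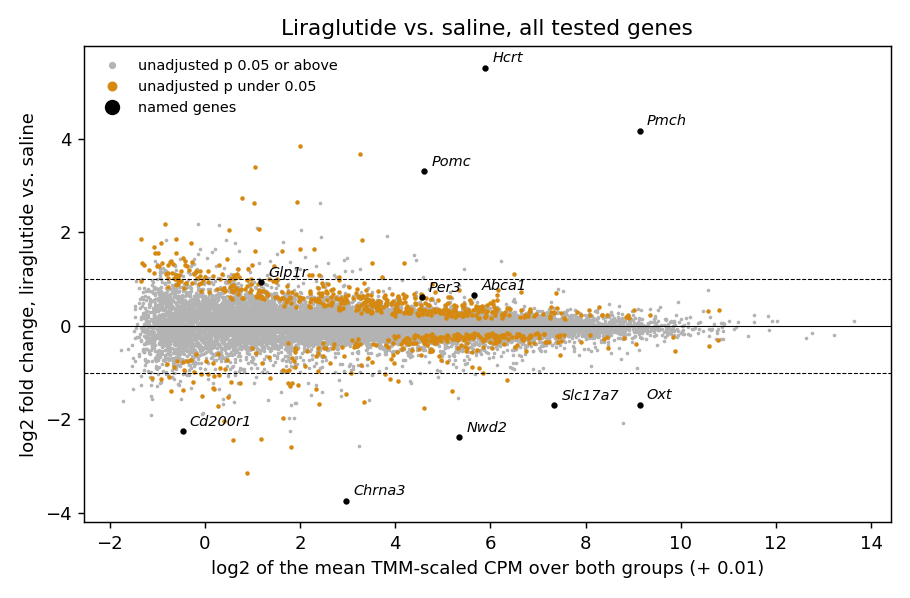
Each point is 1 of the 18491 tested genes, with the mean level of both groups on the x axis (log2 of TMM-scaled CPM) and the log2 fold change of liraglutide vs. saline on the y axis. Genes of unadjusted p under 0.05 are orange, black points are genes named in the text, and dashed lines mark 2-fold. The points of largest fold change at high expression are neuropeptide genes such as Hcrt, Pmch and Oxt, and Per3 and Abca1 sit among the points of modest fold change.

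The gene of smallest p was Per3, a period gene of the circadian clock on chromosome 5 (168088126 to 168123482 in Rnor_6.0). Per3 was at 30.3, 24.5, 30.7, 28.3 and 28.8 CPM in the liraglutide libraries and at 15.3, 21.6, 17.8, 17.6 and 20.5 CPM in the saline libraries. Every liraglutide library lay above every saline library. The log2 fold change was 0.62 (SE 0.11), a 1.53-fold higher level, with an unadjusted p of 0.000176 and an adjusted p of 0.997 in edgeR and an adjusted p of 0.0232 in DESeq2.

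Next by p among the higher genes came Nwd1, Ptch1 and Abca1. Nwd1 was at 41.6, 25.8, 32.0, 33.8 and 43.2 CPM after liraglutide and at 22.4, 21.0, 23.3, 21.9 and 18.6 CPM after saline (log2 fold change 0.72, SE 0.14). Ptch1, the receptor for hedgehog ligands, was at 33.0, 26.2, 46.7, 27.4 and 43.0 CPM against 17.5, 21.0, 22.3, 19.0 and 15.8 CPM (0.89, SE 0.18). Abca1, which exports cholesterol from cells, was at 72.4, 48.1, 56.4, 60.6 and 71.4 CPM against 35.3, 33.9, 35.9, 44.4 and 47.0 CPM (0.65, SE 0.14). None of the groups overlapped for these genes, and none of the genes passed the adjusted threshold of edgeR. Tmod2, an actin-capping protein of neurons, differed by 0.48 (SE 0.10) and Abat, which degrades the transmitter GABA, by 0.70 (SE 0.16). Csmd3 (0.56, SE 0.12), Wdr59 (0.35, SE 0.08), Carmil1 (0.42, SE 0.10) and Acot11, an acyl-CoA thioesterase (0.90, SE 0.21), completed the 10 higher genes of smallest p, again without overlap between the groups. Without saline replicate 4 the log2 fold changes of these 10 genes lay between 0.36 for Carmil1 and 0.87 for Acot11.

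Among the lower genes the smallest p belonged to Cd200r1, a receptor that restrains myeloid cells. Cd200r1 was near the limit of detection, at 0.354, 0.325, 0.191, 0.0947 and 0.248 CPM after liraglutide and at 0.774, 1.02, 2.26, 1.10 and 0.746 CPM after saline. Its log2 fold change was -2.25 (SE 0.44).

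Nwd2 was at 15.9, 11.7, 13.2, 9.70 and 14.9 CPM after liraglutide and at 61.3, 84.6, 19.8, 153 and 22.2 CPM after saline. The liraglutide libraries were alike and the saline libraries were spread widely, with replicates 6 and 8 close to the liraglutide level. The log2 fold change was -2.38 (SE 0.52, unadjusted p 0.000864), and DESeq2 gave an adjusted p of 0.0462. Nwd2 is also on the list of habenula and thalamus markers, of which 14 of 16 tested were lower, with a median of -0.43. At an unadjusted p under 0.05, 3 of them were lower, beside 1.68% of all genes. Without saline replicate 7 the list had 9 members higher and 7 lower, with a median of 0.03. Chrna3 and Chrnb4, nicotinic receptor subunits on the same list, were high in saline replicates 5 and 7, but not in saline replicate 4, where Nwd2 was also high. Chrna3 was at 25.9 CPM in saline replicate 5 and 43.8 CPM in saline replicate 7, and between 0.605 and 2.20 CPM in the other 8 libraries of both groups. Chrnb4 was at 6.75 and 8.71 CPM in these animals and at 0.813 CPM or less elsewhere. The part of habenular tissue in the difference of Nwd2 was not tested.

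Several of the remaining lower genes differed little but with tight replicates. Sfpq, an RNA-binding splicing factor, was at 97.5, 93.8, 95.5, 93.3 and 94.3 CPM after liraglutide and at 108, 111, 113, 113 and 123 CPM after saline (log2 fold change -0.26, SE 0.06). Zfand5 was lower by a log2 difference of -0.35 (SE 0.09) and Exosc4, a subunit of the RNA exosome, by -0.38 (SE 0.10), both without overlap. Cited2, a transcriptional coregulator, differed by -0.47 (SE 0.12) and Kcnmb4, a subunit of the BK potassium channel, by -0.77 (SE 0.20), with overlapping groups. Dach2, at low level, differed by -1.53 (SE 0.40).

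**Figure D2:**
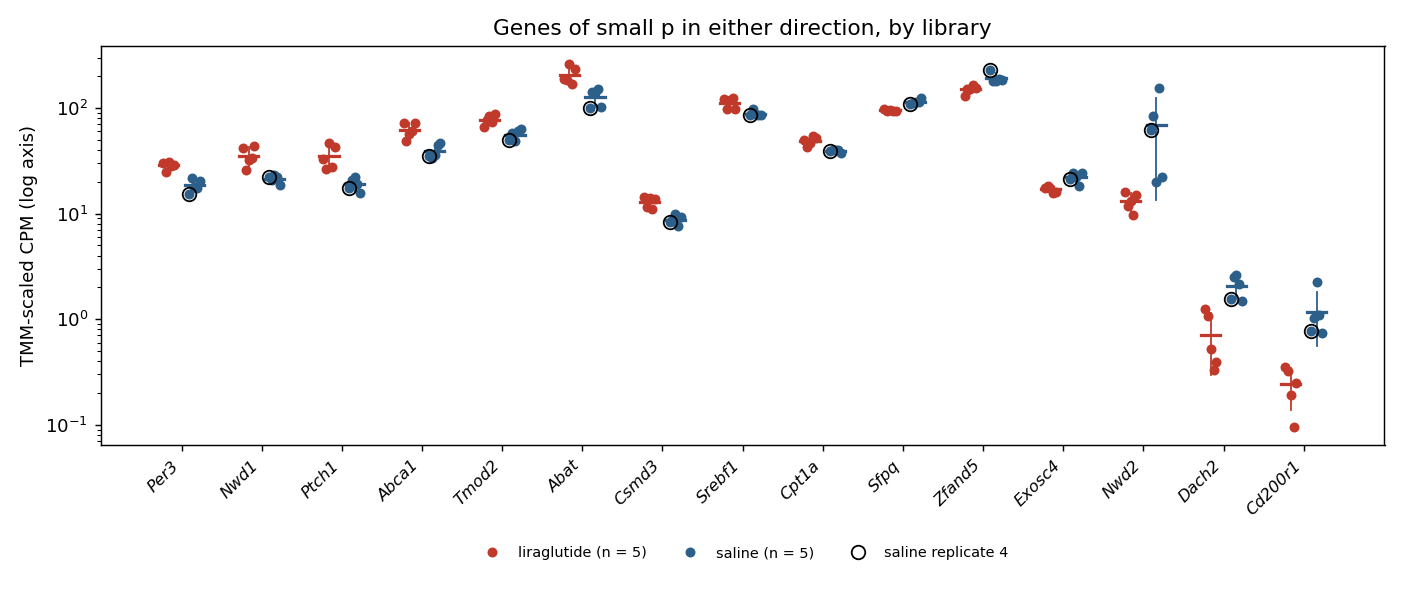
TMM-scaled CPM on a log axis for genes of small p, with 1 point per animal (red, liraglutide; blue, saline), a horizontal mark at the group mean and a vertical bar of 1 SD, left out where the SD exceeds the mean. Saline replicate 4 is circled. Per3 lies between 24.5 and 30.7 CPM after liraglutide and between 15.3 and 21.6 CPM after saline, while Nwd2 is tight after liraglutide and spread after saline.

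The circadian clock rests on Clock and Arntl (Bmal1), which drive period, cryptochrome and Nr1d genes that feed back on them. All 18 genes of this list were tested, and 5 were higher and 1 lower at an unadjusted p under 0.05, against 2.61% and 1.68% of all genes. Nr1d1, the repressor REV-ERB alpha, was at 79.7, 77.8, 84.0, 108 and 82.8 CPM after liraglutide and at 75.5, 70.7, 67.5, 66.5 and 74.2 CPM after saline, without overlap (log2 fold change 0.29, SE 0.10). Dbp, a clock output factor, was at 132, 164, 220, 194 and 172 CPM against 116, 116, 125, 128 and 180 CPM (0.41, SE 0.16). Saline replicate 8 alone of the saline animals reached the range of the liraglutide group for Dbp. For Dbp and Rorb the p was 0.0549 and 0.0536 without saline replicate 4. Rorb differed by 0.44 (SE 0.18), and Ciart (0.48, SE 0.21) and Clock itself (-0.17, SE 0.07), named after their values were seen, made up the 6. Of the other members, Per1 differed by 0.01 (SE 0.36), Per2 by 0.07 (SE 0.13), Cry1 by 0.01 (SE 0.14) and Cry2 by 0.03 (SE 0.18). Arntl differed by -0.33 (SE 0.21), Npas2 by -0.28 (SE 0.32) and Rora by -0.37 (SE 0.38). Without saline replicate 4 the value was 0.43 for Per1, 0.21 for Cry2 and -0.06 for Arntl. The median of the list was 0.05, and 17 of 18 intervals lay within 2-fold. No adjusted p was below 0.997, and without saline replicate 4 the members of unadjusted p under 0.05 numbered 2 higher and 0 lower, with a median of 0.18. In that fit 4.58% of all genes were higher and 1.88% lower.

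Clock and Arntl bind the E-box, and the D-box binds Dbp and related factors. Both were searched by their letters on either strand, CACGTG for the E-box and TTATGTAA for the D-box, in the promoter windows of RefSeq (build GRCr8), 250 bases before to 50 bases after each start. The E-box was in 6.65% of 27457 windows and the D-box in 0.881%. Of 16 clock genes with a window, Tef, Ciart, Bhlhe40 and Bhlhe41 held an E-box, and Per2 held a D-box. The window of Per3 held neither. Ciart, whose product represses Clock and Arntl, held 3 E-boxes and is shown here for that, with the E-boxes in capitals; the stretch runs from base 123 to base 1 before the start, on chromosome 2, 186112247 to 186112369, minus strand.
Ciart: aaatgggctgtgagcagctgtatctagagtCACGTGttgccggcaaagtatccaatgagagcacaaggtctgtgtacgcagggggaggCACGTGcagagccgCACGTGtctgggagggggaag
Over the 1151 tested genes with an E-box the median log2 fold change was -0.0090, with 2.87% higher and 3.30% lower at an unadjusted p under 0.05, beside 2.60% and 1.75% of all 12877 tested genes with a window.

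Genes of lipid handling gave values of the same order as those of the clock. Srebf1, which drives fatty acid synthesis, was at 121, 98.6, 119, 125 and 97.9 CPM after liraglutide and at 85.8, 97.0, 87.1, 86.0 and 84.9 CPM after saline. The groups did not overlap, though liraglutide replicate 5 and saline replicate 5 were close together (log2 fold change 0.35, SE 0.09). Cpt1a, which admits fatty acids to mitochondria, was at 49.7, 42.6, 46.1, 54.0 and 51.9 CPM against 39.0, 39.8, 40.4, 39.7 and 37.6 CPM (0.31, SE 0.08), again without overlap. Acaca, the enzyme that makes malonyl-CoA, differed by 0.45 (SE 0.19). On the list of cholesterol and fatty acid synthesis, Srebf1 and Acaca were the 2 of 22 members with an unadjusted p under 0.05. The median of that list was -0.01, with 10 members higher and 12 lower. On the list of AMPK and energy sensing, Acaca and Cpt1a were the 2 of 24, with a median of 0.0016 and 12 members in each direction. Over all genes 2.61% were higher and 1.68% lower at that p, with a median of -0.0087. Without saline replicate 4, 17 of 22 and 18 of 24 members were higher, with medians of 0.09 and 0.08, beside -0.0018 over all genes.

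The receptor that liraglutide binds was weakly expressed. Glp1r (chromosome 20, 9586075 to 9626228) was at 4.41, 2.32, 4.74, 0.899 and 2.52 CPM after liraglutide and at 0.430, 1.44, 3.55, 1.61 and 0.696 CPM after saline. The groups overlapped widely, and the log2 fold change was 0.94 (SE 0.57, 95% confidence interval -0.32 to 2.19, unadjusted p 0.129). An interval of this width leaves the direction of Glp1r unresolved at this depth and spread. Per kilobase of exon the median level of Glp1r over the 10 libraries was 0.642 CPM, against 1.74 for Gipr, the receptor of the incretin GIP, 2.58 for Npy2r, the receptor of PYY3-36, and 18.0 for Calcr, the calcitonin receptor through which amylin acts.

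Of the 15 genes of the GLP-1 and related peptide system 9 had enough counts to be tested. Gcg, the gene of GLP-1 itself, had 5 counts in all 10 libraries together, Gip had 0, Glp2r 25, Pyy 62, Gfral 63 and Sctr 33. Npy2r was the 1 member with an unadjusted p under 0.05, at 18.4, 10.1, 11.6, 6.06 and 11.8 CPM after liraglutide and at 7.66, 9.68, 7.01, 7.14 and 5.52 CPM after saline (log2 fold change 0.65, SE 0.26, p 0.0309). Of all genes 2.61% were higher at an unadjusted p under 0.05. For Npy2r only liraglutide replicate 4 was within the saline range, and without liraglutide replicate 1 the log2 fold change was 0.41 with a p of 0.0968. Dpp4, the peptidase that cleaves native GLP-1, was at 9.37 CPM in liraglutide replicate 1 and between 0.67 and 1.94 CPM in the other 9 libraries. Its log2 fold change of 0.99 (SE 0.65) turned to -0.16 without that library. Gipr differed by -0.14 (SE 0.39), Gcgr by 0.73 (SE 0.70) and Calcr by 0.14 (SE 0.97). The RAMP proteins, which pair with the calcitonin receptor family, differed by -0.02 for Ramp1, 0.06 for Ramp2 and -0.52 for Ramp3, with SEs of 0.40, 0.22 and 0.75. Calcr shows how wide the spread between animals was, with 10.7 to 183 CPM after liraglutide and 1.42 to 199 CPM after saline.

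In the arcuate feeding circuit 24 of 25 genes were tested, of which 3 were higher and 0 lower at an unadjusted p under 0.05, against 2.61% and 1.68% of all genes. Pomc, the precursor of the anorexigenic peptide alpha-MSH, had the largest fold change of the list (log2 fold change 3.31, SE 1.04, p 0.00933, adjusted p 0.997). It was at 170, 28.9, 3.97, 3.03 and 16.4 CPM after liraglutide and at 2.06, 8.91, 4.31, 3.91 and 3.13 CPM after saline. Liraglutide replicates 1, 2 and 5 were above the saline range and replicates 3 and 4 were within it. Without liraglutide replicate 1 the log2 fold change was 1.55 (SE 0.67, p 0.045).

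Liraglutide replicate 1 was also highest for Agrp and Ghsr, whose products favour feeding. Agrp, the melanocortin antagonist, was at 8.31, 1.39, 0.430, 0.0947 and 1.74 CPM after liraglutide and at 0.473, 0.127, 0.443, 0.680 and 1.79 CPM after saline (1.78, SE 0.99). Ghsr, the ghrelin receptor, was at 6.42, 4.36, 0.718, 0.615 and 3.54 CPM against 0.301, 1.36, 1.61, 1.06 and 0.796 CPM (1.61, SE 0.66, p 0.0332). Liraglutide replicates 1, 2 and 5 were above the saline range for Ghsr, and replicate 1 alone for Agrp. Without replicate 1 the p of Ghsr was 0.102 and the log2 fold change of Agrp 0.40, and without saline replicate 4 the p of Ghsr was 0.0638. Nkx2-1, which marks the ventral hypothalamus, was at 16.2, 15.6, 12.6, 4.31 and 4.32 CPM after liraglutide and between 0.516 and 7.74 CPM after saline, so it was high in replicates 1 and 2 but also in replicate 3. With a score of hypothalamic nucleus transcription factors as a covariate, added after seeing the data, Agrp was at 0.615 and Ghsr at 0.624. Pomc was at 1.81 in that fit. The part of the dissected region in these values was not tested.

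Cartpt, an anorexigenic peptide made beside Pomc, was at 185, 232, 37.7, 8.66 and 74.9 CPM after liraglutide and at 6.67, 42.7, 56.7, 28.8 and 70.6 CPM after saline (log2 fold change 1.39, SE 0.79). Npy, which stimulates feeding, was at 13.7, 7.05, 28.4, 20.4 and 10.1 CPM against 43.1, 9.85, 15.3, 10.3 and 39.0 CPM (-0.56, SE 0.51). Neither passed an unadjusted p under 0.05. Ntrk2, the receptor of BDNF, was expressed strongly and evenly, at 610, 531, 454, 651 and 650 CPM against 555, 434, 460, 389 and 464 CPM (0.33, SE 0.13, p 0.0231). Bdnf itself differed by -0.31 (SE 0.59), and by 0.15 without saline replicate 4.

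Among the receptors of the circuit, Npy1r differed by 0.0045 (95% confidence interval -0.50 to 0.51) and Npy5r by 0.20 (-0.32 to 0.72). Mc4r, the melanocortin receptor through which alpha-MSH lowers feeding, differed by 0.09 (-0.80 to 0.99), and Mc3r by 0.43 with a wider interval of -1.32 to 2.17. Lepr, the leptin receptor, was at 13.4 CPM in liraglutide replicate 1 and between 3.01 and 3.88 CPM in the other liraglutide libraries, against 2.58 to 9.55 CPM after saline (-0.02, SE 0.51). Insr (0.42, SE 0.23), its downstream factor Foxo1 (0.43, SE 0.22) and Mrap2, a partner of Mc4r (0.26, SE 0.29), had intervals that included 0. Leaving out saline replicate 4 gave 0.59 for Insr (p 0.0171), 0.54 for Foxo1 (p 0.0338) and 0.081 for Mrap2 (p 0.728).

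**Figure D3:**
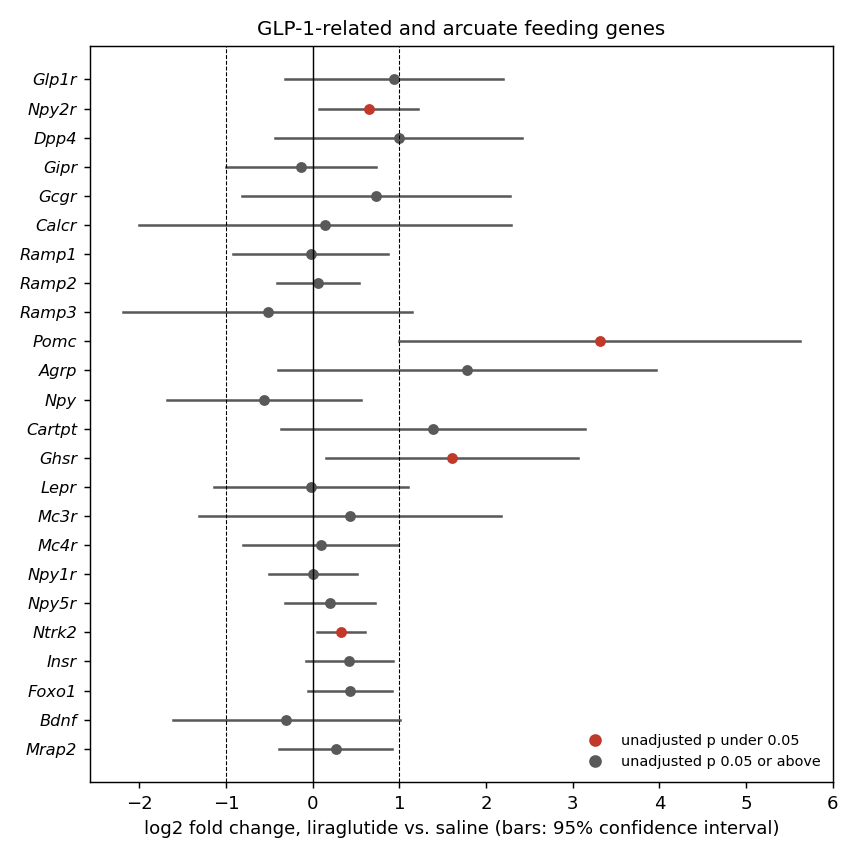
Log2 fold change of liraglutide vs. saline with its 95% confidence interval for genes of the GLP-1-related and arcuate feeding lists; red points have an unadjusted p under 0.05, and dashed lines mark 2-fold. The interval of Glp1r runs from -0.32 to 2.19 and that of Agrp from -0.40 to 3.96, while that of Ntrk2 runs from 0.05 to 0.61.

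Neuropeptides of other hypothalamic nuclei varied widely between animals of the same group. Of 34 genes 26 were tested, and 4 were higher and 2 lower at an unadjusted p under 0.05, against 2.61% and 1.68% of all genes. Pmch, the melanin-concentrating hormone of the lateral hypothalamus, was at 1263, 4032, 6.17, 28.8 and 13.2 CPM after liraglutide and at 1.76, 92.9, 73.9, 121 and 5.87 CPM after saline (log2 fold change 4.17, SE 1.79, p 0.0408). Hcrt, the orexin precursor of the same region, was at 189, 387, 0.622, 0.237 and 2.55 CPM against 0.043, 6.75, 2.26, 1.91 and 1.54 CPM (5.53, SE 1.83, p 0.012). Both fold changes came from liraglutide replicates 1 and 2, while replicates 3, 4 and 5 lay within the saline range. Ghrh (2.07, SE 0.83) and Nmu, the anorexigenic neuromedin U (3.41, SE 0.96), were highest in the same 2 animals, at 10.5 and 4.64 CPM and at 13.4 and 2.32 CPM. Without liraglutide replicate 1 Ghrh was at 1.10 (p 0.144) and Nmu at 1.95 (p 0.0124), and the p of Pmch was 0.0594. Leaving out saline replicate 4 gave a p of 0.0535 for Ghrh and 0.0724 for Pmch.

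Oxt, Avp and Trh of the paraventricular nucleus had a different pattern. Oxt was at 52.6, 308, 2.44, 16.1 and 959 CPM after liraglutide and at 1.38, 577, 2837, 381 and 495 CPM after saline (-1.68, SE 1.54). Avp was at 144, 319, 3.06, 41.8 and 338 CPM against 1.12, 366, 2455, 196 and 541 CPM (-2.07, SE 1.38), and Trh at 70.1, 117, 12.2, 17.9 and 212 CPM against 2.54, 195, 249, 34.5 and 51.7 CPM (-0.31, SE 1.01). Liraglutide replicate 3 and saline replicate 4 were low for all 3 genes, and none had an unadjusted p under 0.05. Gnrh1, the releasing hormone of the reproductive axis, was lower at 0.433, 1.07, 2.15, 0.805 and 1.84 CPM against 0.387, 6.75, 7.82, 4.76 and 5.17 CPM (-1.98, SE 0.65, p 0.0114). Only saline replicate 4 kept the groups from being apart. Without it the log2 fold change of Gnrh1 was -2.28, with an unadjusted p of 0.000224 but an adjusted p of 0.627. Gnrh1 was at -2.23 with all 65 libraries. In the liraglutide term of the additive model described below it was at -0.11, so the size depended on the model. Tac3 was lower by a log2 difference of -0.53 (SE 0.23).

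**Figure D4:**
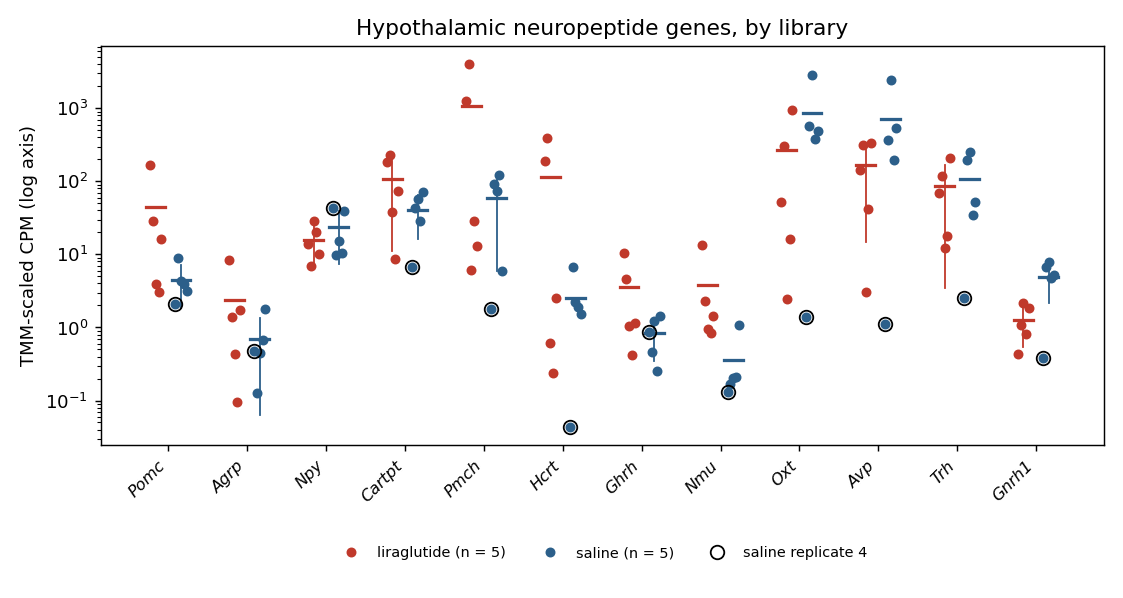
TMM-scaled CPM on a log axis for hypothalamic neuropeptide genes, with 1 point per animal (red, liraglutide; blue, saline), a horizontal mark at the group mean and a bar of 1 SD, left out where the SD exceeds the mean. Pmch spans 1.76 to 4032 CPM and Oxt 1.38 to 2837 CPM over the 10 animals, and saline replicate 4, circled, is the lowest point for both.

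Receptors for feeding-related signals were tested for 31 genes. Htr1b, a serotonin receptor, was at 4.05, 3.29, 5.98, 3.08 and 4.39 CPM after liraglutide and at 2.71, 2.55, 1.57, 2.93 and 2.83 CPM after saline, without overlap (log2 fold change 0.72, SE 0.25, p 0.0132). Oxtr, the oxytocin receptor, differed by 0.76 (SE 0.29, p 0.0239). These were the 2 members with an unadjusted p under 0.05, against 2.61% higher and 1.68% lower among all genes. Htr2c, the serotonin receptor targeted by the appetite suppressant lorcaserin, differed by -0.34 (SE 0.18), and the median of the list was 0.15. The p was 0.0501 for Oxtr and 0.0305 for Htr2c, then at -0.43, without saline replicate 4.

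The signalling chain below the GLP-1 receptor was nearly level. All 31 genes of Gs and cyclic AMP signalling were tested, with a median log2 fold change of 0.06, a range of -0.27 to 0.36 and 28 of 31 intervals within 2-fold. Rapgef3 (Epac1), a cyclic AMP sensor, was at 80.5, 73.6, 65.5, 88.8 and 78.5 CPM after liraglutide and at 56.0, 65.5, 56.0, 72.3 and 60.3 CPM after saline (0.32, SE 0.10, p 0.00981) and was the 1 member with an unadjusted p under 0.05. Of all genes 2.61% were higher at that p. Without saline replicate 4, 5 members had such a p, all higher, where 4.58% of all genes were higher. Among 30 genes of leptin, insulin and PI3K signalling, Stat5b (0.60, SE 0.17) and the insulin receptor substrate Irs1 (0.61, SE 0.23) were higher and Pik3ca (-0.16, SE 0.07) was lower at an unadjusted p under 0.05, with a list median of 0.06. Without saline replicate 4 the members numbered 6 higher and 1 lower, where 4.58% and 1.88% of all genes were. With all libraries the shares over all genes were 2.61% and 1.68%.

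Immediate early genes, which neurons transcribe within minutes of activity, were all lower in the mean of the liraglutide group. The list held 26 genes, all tested, and all 26 log2 fold changes were below 0, with a median of -0.63 and a range of -1.65 to -0.11. At an unadjusted p under 0.05 there were 2, Nr4a3 (-0.84, SE 0.33) and Nr4a2 (-1.14, SE 0.50), and none at an adjusted p under 0.05. Of all genes 1.68% were lower at the unadjusted threshold. Fos was at 20.2, 13.3, 13.5, 32.8 and 16.3 CPM after liraglutide and at 71.9, 22.5, 32.9, 23.1 and 15.0 CPM after saline (-0.78, SE 0.42). Egr2 was at 21.2 CPM in saline replicate 4 and between 0.556 and 2.7 CPM in the other 9 libraries.

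The summed level of the list was 1861 CPM in saline replicate 4, which also had the highest cortical markers, and between 553 and 814 CPM in the other saline libraries, within the 514 to 903 CPM of the liraglutide libraries. Without saline replicate 4 the median was -0.11, 22 of 26 members were lower, none had an unadjusted p under 0.05, and all 26 log2 fold changes were smaller in size. Nr4a2 was then at -0.69 (p 0.156) and Egr2 at 0.02. The 14 markers of cortex and hippocampus moved alike, all 14 lower with a median of -0.86 and then 8 lower and 6 higher with a median of -0.04.

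**Figure D5:**
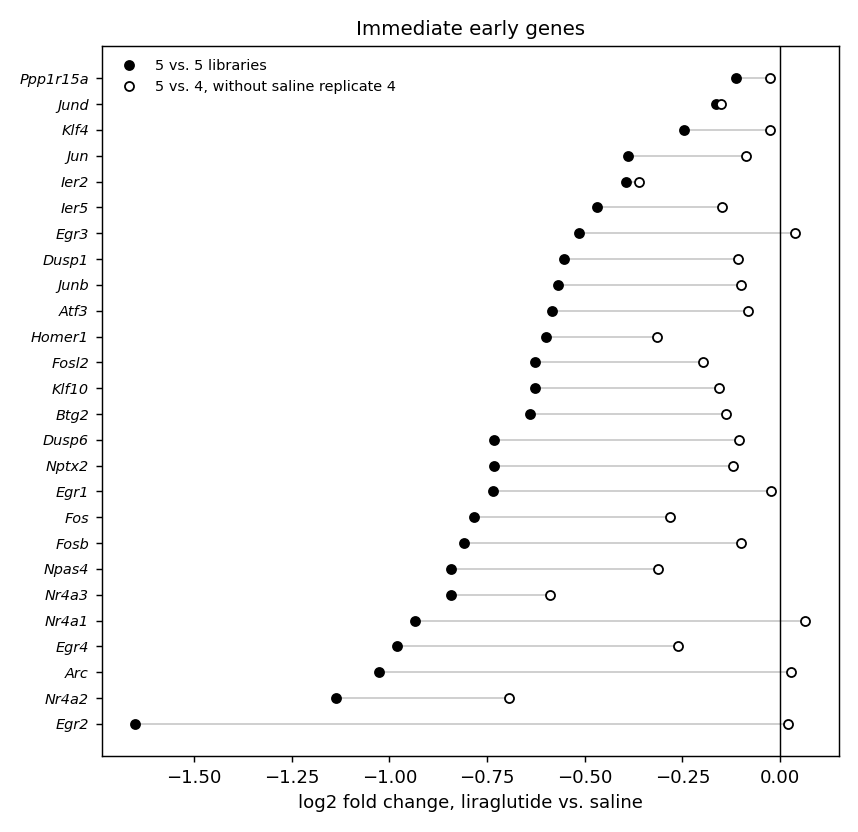
Log2 fold change of liraglutide vs. saline for the 26 immediate early genes, computed from all 10 libraries (filled) and without saline replicate 4 (open). All filled points lie below 0, with a median of -0.63, and the open points lie closer to 0, with a median of -0.11.

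The cyclic AMP response element (CRE, TGACGTCA, the same on both strands) binds CREB, a factor activated by cyclic AMP. It was in 1.91% of the 27457 promoter windows and in 2.88% of the 12877 tested genes with a window. The 371 tested genes with a CRE had a median log2 fold change of -0.04, with 144 higher and 227 lower, beside -0.0066 for all tested genes with a window. At an unadjusted p under 0.05, 1.08% were higher and 1.89% lower, beside 2.60% and 1.75%. Of 19 immediate early genes with a window, Jund, Ier2, Dusp1, Btg2 and Ppp1r15a held a CRE, and of 21 genes of the arcuate feeding circuit only Cartpt did. The stretches of Cartpt and of 3 immediate early genes are shown to give the element in its setting, from RefSeq build GRCr8, with the CRE in capitals, and for Dusp1 also an E-box that follows it. Cartpt lies on chromosome 2, 32991340 to 32991407, minus strand, Dusp1 on chromosome 10, 17184699 to 17184781, plus strand, Btg2 on chromosome 13, 48087854 to 48087921, minus strand, and Ier2 on chromosome 19, 40399277 to 40399344, plus strand.
Cartpt: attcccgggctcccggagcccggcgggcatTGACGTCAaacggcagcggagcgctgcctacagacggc
Dusp1: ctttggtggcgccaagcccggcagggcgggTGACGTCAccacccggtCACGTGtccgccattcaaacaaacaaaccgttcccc
Btg2: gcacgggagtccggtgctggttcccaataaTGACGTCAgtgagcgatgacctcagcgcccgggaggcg
Ier2: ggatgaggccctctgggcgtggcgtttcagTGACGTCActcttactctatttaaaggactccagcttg
The log2 fold changes of these 4 genes were 1.39 for Cartpt, -0.55 for Dusp1, -0.64 for Btg2 and -0.40 for Ier2, none with an unadjusted p under 0.05.

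Genes of energy metabolism and of the ribosome had small values in a common direction. Of 58 tested genes of oxidative phosphorylation 54 were lower, with a median log2 fold change of -0.11 and all 58 intervals within 2-fold. Ndufc1, a subunit of complex I (-0.33, SE 0.11), and Uqcrfs1, the Rieske protein of complex III (-0.23, SE 0.09), were the 2 with an unadjusted p under 0.05. Of 61 tested genes of cytosolic ribosomal proteins 56 were lower, with a median of -0.08, and none had an unadjusted p under 0.05. Over all genes the median was -0.0087, and 1.68% were lower at an unadjusted p under 0.05. The direction turned for oxidative phosphorylation in the liraglutide term of the additive model over the saline, liraglutide, PYY3-36 and PYY3-36 + liraglutide animals of both batches, with 51 of 58 higher and a median of 0.048, and for ribosomal proteins with the replicate block, with 35 of 61 higher and a median of 0.013. The group difference with that block rests only on the libraries numbered 4 and 5, saline replicate 4 among them. The summed level of the oxidative phosphorylation genes was 8377, 11060, 11620, 9757 and 8378 CPM after liraglutide and between 9939 and 11490 CPM after saline, so replicates 1 and 5 were the low libraries and replicate 3 was above every saline library.

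Markers of glia gave similarly small values. All 13 astrocyte markers were higher, with a median of 0.15 (0.09 without saline replicate 4, then 12 of 13). Without liraglutide replicate 1, 10 of 13 were higher. In the liraglutide term of the additive model 6 were higher and 7 lower, with a median of -0.0035. Fgfr3, an astrocyte receptor for fibroblast growth factors, was at 125, 130, 125, 117 and 121 CPM after liraglutide and at 86.1, 101, 112, 102 and 104 CPM after saline, without overlap (0.29, SE 0.08). Of 21 tested genes of inflammation and microglia 0 had an unadjusted p under 0.05, with Csf1r at 0.30 (SE 0.14, p 0.0552) and Cx3cr1, the fractalkine receptor, at 0.40 (SE 0.19, p 0.0553). With saline replicate 4 left out Cx3cr1 was at 0.50 (p 0.0235) and was the 1 such member of 22, and without liraglutide replicate 2 there were 4 of 22, all higher. Of all genes 4.58% and 3.1% were higher in these fits. The 13 oligodendrocyte markers had a median of -0.07, with summed levels of 19540 to 42000 CPM after liraglutide and 20060 to 34690 CPM after saline. Among neuronal markers Snap25 (-0.43, SE 0.17) and Syt1 (-0.53, SE 0.23), both of the synaptic release machinery, were lower, and Gad2, which makes GABA (0.65, SE 0.26), was higher at an unadjusted p under 0.05. The list held 15 neuronal markers, and 2.61% of all genes were higher and 1.68% lower at that p. Snap25 and Syt1 were highest in saline replicate 4, at 2545 and 1827 CPM, and their p without it was 0.0566 and 0.0948, while that of Gad2 was 0.0503.

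Further lists had 0 to 2 members of unadjusted p under 0.05, where 2.61% of all genes were higher and 1.68% lower. Ptn was lower by a log2 difference of -0.46 (SE 0.13) among 19 genes of the thyroid axis and tanycytes, and Mt2A, a metallothionein induced by glucocorticoids, by -0.79 (SE 0.30) among 16 genes of the glucocorticoid response. Six3 (0.71, SE 0.21, without overlap) was higher, as was Rorb, among 25 transcription factors of hypothalamic nuclei, and Tbx19, a corticotroph factor (1.28, SE 0.39), was higher among 3 tested pituitary markers. ER stress (19 tested), endothelium (10), choroid plexus (14), meninges (14), blood (4), ependyma (7) and striatum (12) had none. The markers of meninges summed to 8963 CPM in liraglutide replicate 1 and to between 511 and 2605 CPM in the other 9 libraries, and those of striatum to 4120 CPM in saline replicate 8 and 2268 CPM in liraglutide replicate 3. With all libraries 9 meningeal markers were higher and 5 lower, with a median of 0.28. Without liraglutide replicate 1 all 14 were lower, 10 of them at an unadjusted p under 0.05, with a median of -1.23. In that fit 1.43% of all genes were lower at this p.

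Liraglutide was also given in a second setting, with 0.1 mg/kg/day of PYY3-36, a gut peptide that acts on Npy2r. Animals given PYY3-36 + liraglutide in batch B (5) against those given PYY3-36 in batch B (4), and PYY3-36 + liraglutide in batch A (5) against saline in batch A (3), share no library with the comparison above. In the first, 244 of 18924 genes met the threshold for regulation (1.29%), 8 higher and 236 lower, and 6.35% of genes were higher and 11.9% lower at an unadjusted p under 0.05. This count rested on single animals, with 10 genes without PYY3-36 replicate 1 and 308 without PYY3-36 replicate 2. The markers of meninges moved with it, with a median log2 fold change of -2.60 over the 14 markers, and their part in the result was not tested. In the second, 0 of 20097 genes met the threshold for regulation in edgeR and 9 of 29667 in DESeq2. In edgeR 353 genes were higher (1.76%) and 195 lower (0.97%) at an unadjusted p under 0.05.

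Most of the leading genes of liraglutide vs. saline did not keep their direction in these animals. Of the 10 higher genes of smallest p, 3 were higher when liraglutide was added to PYY3-36 and 4 were higher in batch A. Of the 10 lower genes, 5 and 1 were lower. Among the 483 higher genes of unadjusted p under 0.05, 479 were tested in the first and 37.2% were higher there, beside 44.9% of all genes that were higher after liraglutide alone, and 51.9% were higher in batch A, beside 51.0%. Among the 311 lower genes, 31.9% and 38.6% were lower, beside 41.7% and 48.0% of all genes that were lower after liraglutide alone. Per3 was at a log2 fold change of -0.05 (SE 0.13) and -0.23 (SE 0.13). Srebf1 was at -0.42 (SE 0.18) and -0.02 (SE 0.16). Pomc was at -3.08 (SE 1.23, adjusted p 0.231 in edgeR) and -1.84 (SE 1.37, unadjusted p 0.213). Abca1 was at -0.14 when liraglutide was added to PYY3-36 and at 0.33 in batch A, where its unadjusted p was 0.0137. Glp1r was at -0.32 and -0.91, opposite in sign to its value of 0.94 after liraglutide alone, whose direction was unresolved.

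Lepr and Dpp4 met the threshold when liraglutide was added to PYY3-36. Lepr was lower by a log2 difference of -1.53 (adjusted p 0.0478) and Dpp4 of -1.92 (adjusted p 0.0255), but these calls were not stable. With each of the 9 animals left out in turn, Lepr lost the call in 8 cases (adjusted p 0.064 to 0.135) and Dpp4 in 6 (adjusted p 0.0551 to 0.0847). The 14 markers of meninges had a median of -2.60 in the same comparison. In liraglutide vs. saline both genes were highest in liraglutide replicate 1, where these markers summed to 8963 CPM, against 511 to 2605 CPM in the other libraries. The part of meningeal tissue in Lepr and Dpp4 was not tested. The difference between the effect of liraglutide with and without PYY3-36, tested as an interaction in the 19 libraries of these 4 groups, which include the liraglutide and saline libraries above, passed for 0 of 19789 genes in edgeR (smallest adjusted p 0.135). An unadjusted p under 0.05 was found for 2957 genes (14.9%) in edgeR. In DESeq2 174 of 30208 genes met the threshold for regulation.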

How the data were processed

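The authors sequenced poly-A RNA with a stranded kit, trimmed reads with cutadapt, mapped them with STAR 2.7.2b to Rnor_6.0 and counted them on RefSeq genes with featureCounts 1.6.4, splitting reads of several places or genes into fractions. What they deposited are estimated counts without any scaling, of which 29.2% among the nonzero values of the 10 libraries were not whole (tolerance 1e-06). They were rounded. Group and batch came from the labels, doses and diets from the study's methods.

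In R 4.3.3, edgeR 4.0.16 tested the 10 libraries with filterByExpr (minimum count 10, minimum total 15), TMM and a robust quasi-likelihood fit without covariates, with Benjamini-Hochberg adjustment over all genes. DESeq2 1.42.0 and limma 3.58.1 were alternatives. SEs and 95% intervals belong to log2 fold changes, and p-values printed without the word adjusted are unadjusted. The fit was tested on simulated data, which gave every gene the same scatter between libraries and held no library set apart, unlike the data here. Members and lists were chosen with earlier results of these data known. Named genes were all of the GLP-1 and arcuate lists, the 10 of smallest p per direction, up to 4 of smallest p per other list and the 10 of largest variance; not all are discussed. Symbols of more than 1 gene numbered 148.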

Additional observations from a re-analysis of the deposited data

Results flagged for a closer look

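In each group of 5 animals, the log2 levels of 86 genes named in the text were searched for an animal set apart from the other 4 by more than 0.71 of the group's range. Of 172 such groups 13 were found (7.56%). Chance finds about 1 in 20 among independent groups, but these genes were chosen from the same data, so the shares cannot be compared. Liraglutide replicate 1 was high for Lepr (gap of 0.846 of the range), Chrna3 (0.768) and Nmu (0.715), with Lepr at 13.4 CPM against 3.01 to 3.88 CPM in the other liraglutide animals. Liraglutide replicate 4 was high for Nr1d1 (0.773), at 108 CPM against 77.8 to 84.0 CPM. Saline replicate 4 was high for Zfand5 (0.854) and Egr2 (0.825) and low for Gnrh1 (0.77) and Oxt (0.717). Egr2 was at 21.2 CPM there and between 1.23 and 2.34 CPM in the other saline animals, and Gnrh1 was at 0.387 CPM against 4.76 to 7.82 CPM. Saline replicate 5 was high for Srebf1 (0.807) and saline replicate 6 low for Htr1b (0.757). Saline replicate 8 was high for Nmu (0.885), Ramp1 (0.836) and Dbp (0.763), with Ramp1 at 108 CPM against 30.2 to 37.3 CPM.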

How the results depend on the processing

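The count of 0 regulated genes became 1 with DESeq2 without shrinkage and 1 with all batch B libraries in 1 model, Nwd2 in both, and stayed 0 otherwise. The 794 genes of unadjusted p under 0.05 became 1215 with limma voom and quality weights and 456 with all 65 libraries, and ran from 620 to 1207 when single animals were left out, highest without saline replicate 4. Only numbers 4 and 5 occur in both groups and they do not pair animals. A fit with the replicate block, whose group difference rests only on the libraries of these numbers, gave 278 such genes and 0 regulated. The 244 genes of liraglutide added to PYY3-36 became 569 with DESeq2 and ran from 10 to 308 with single animals left out. PYY3-36 + liraglutide in batch A gave 9 with DESeq2 and 0 to 1 with animals left out, and the interaction 174 and 0 to 1. The causes were not tested.

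Of 86 genes 55 kept their sign in every alternative, but sizes moved. The 10 higher genes of smallest p, between 0.35 and 0.90, ran from 0.18 to 0.56 with all 65 libraries and from 0.067 to 0.32 in the additive model, with Per3 at 0.26 in the former and 0.078 in the latter. With limma voom, Gipr turned to 0.26, Lepr to 0.10, Npy1r to -0.13, Ramp1 to 0.24 and Ramp2 to -0.021. The replicate block left the group difference to the libraries numbered 4 and 5. With it, Avp turned to 2.20, Gipr to 0.19, Hcrt to -1.02, Npy2r to -0.022, Oxt to 1.94, Ramp1 to 0.28, Ramp2 to -0.086, Ramp3 to 0.88 and Trh to 1.33. With all 65 libraries, Calcr turned to -0.44, Glp1r to -0.060, Lepr to 0.26, Mc3r to -0.22 and Nkx2-1 to -0.10. The liraglutide term of the additive model gave Agrp -0.63, Cited2 0.014, Gcgr -0.052, Ghrh -0.17, Ghsr -0.21, Glp1r -0.10, Htr2c 0.16, Mc3r -0.22, Nkx2-1 -0.051, Nmu -0.48, Pik3ca 0.00082, Pomc -1.002, Ramp1 0.29, Srebf1 -0.048, Tbx19 -0.22 and Trh 0.15. Covariates were added after seeing the data. With the nucleus transcription factor score, Calcr turned to -0.47, Gipr to 0.17, Lepr to 0.15, Mc3r to -0.25, Npy1r to -0.16, Ramp1 to 0.12, Ramp2 to -0.063 and Slc17a7 to 0.56. Other peptide and receptor genes kept their sign but shrank, Pomc to 1.81, Agrp to 0.615, Cartpt to 0.233, Ghsr to 0.624, Pmch to 1.66 and Hcrt to 2.91. Oxt at -3.81, Avp at -3.07 and Trh at -1.175 became larger in size. With the cortex and hippocampus score, Bdnf turned to 0.062, Gipr to 0.016, Lepr to 0.17, Npy1r to -0.016, Ramp1 to 0.029, Ramp2 to -0.021 and Slc17a7 to 0.074. With single animals left out, the log2 fold change ran from -0.69 to 0.15 for Bdnf, -0.47 to 1.07 for Calcr, -0.16 to 1.25 for Dpp4, -1.91 to 0.020 for Egr2, -0.32 to 0.26 for Gipr, -0.71 to 0.30 for Lepr, -0.15 to 0.48 for Mc4r, -0.27 to 0.10 for Npy1r, -0.30 to 0.50 for Ramp1, -0.061 to 0.19 for Ramp2, -0.96 to 0.11 for Ramp3, -2.20 to 0.49 for Slc17a7 and -0.97 to 0.28 for Trh. Genes under about 1 CPM, such as Cd200r1 and Gcgr, rest on few counts.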
